A study of Mus musculus with 10 samples.

Results

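Sertoli cells, which the authors named soma_Sertoli, were set against somatic cells that they named soma_CKO and that are called other somatic cells here. Membership was taken from the authors' cell names, and it covered 3265 Sertoli cells and 5883 other somatic cells, 9148 of the 45250 cells with scRNA-seq data. Nuclei of whole testes came from wild-type mice at 11, 17 and 25 dpp (days post-partum), from 8-week-old Cre/+ mice and from 8-week-old Nfya-CKO mice, with 1 scRNA-seq and 1 scATAC-seq library per condition. In Nfya-CKO mice, which carry Nfya fl/fl alleles, Stra8-Cre removes exons of Nfya in germ cells, so the somatic cells compared here are not the cells in which the allele is designed to be deleted, and Cre/+ mice carry Cre alone. Both assays were made on the same nuclei, so a cell barcode links a cell's RNA to its open chromatin. Each gene has 1 value per population and assay, pooled over all libraries, so no difference between the populations has a replicate check and no p-value was computed.

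Sertoli cells are the epithelial cells of the seminiferous tubule. They enclose the germ cells, answer to follicle-stimulating hormone and testosterone, and seal the tubule with the junctions of the blood-testis barrier. They divide and secrete anti-Müllerian hormone in early life and take on a secretory, germ-cell-supporting state at puberty. Around the tubules lie contractile peritubular cells, and between the tubules lie Leydig cells, which make testosterone and INSL3, together with stromal cells, vessels and macrophages.

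The populations differed in age and library as well as in name. All 3265 Sertoli cells came from a single scRNA-seq cluster, cluster 7, and 2866 of them (87.8%, exact Clopper-Pearson 95% interval 86.6 to 88.9, for counting error only) were from the 11 dpp library and 382 (11.7%) from the 17 dpp library. The 25 dpp library gave 14, the Cre/+ library gave 2, and the library labelled Nfya-CKO gave 0 (upper limit 0.113% of the population, for counting error only). This 0 holds for the scRNA-seq name alone. Cells of that library that scATAC-seq named Sertoli are given below. Other somatic cells spanned 6 clusters, and 4633 of the 5883 (78.8%, 77.7 to 79.8) were from the library labelled Nfya-CKO. The wild-type libraries gave 251 at 11 dpp, 142 at 17 dpp and 513 at 25 dpp, and the Cre/+ library gave 341. Clusters 11, 18, 25 and 28, with 4265 cells or 72.5% of the population, each drew over 90% of their cells from the library labelled Nfya-CKO, whereas clusters 21 and 23 held cells of every library. Cell population, age, genotype and library therefore cannot be told apart in the pooled values. The Sertoli values are mainly those of cells at 11 and 17 dpp.

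**Figure D1:**
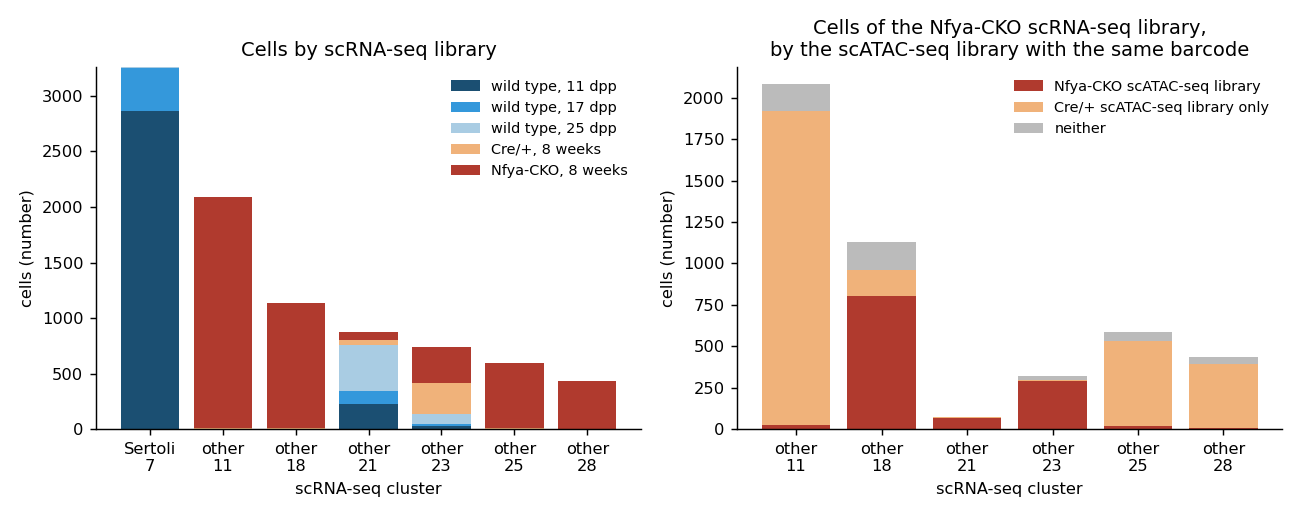
Number of cells in each scRNA-seq cluster by library (left), and, for the 4633 other somatic cells of the library labelled Nfya-CKO, by the scATAC-seq library that holds the same cell barcode (right). Sertoli cells are nearly all from 11 and 17 dpp, 4 of the 6 other somatic clusters are nearly all from the library labelled Nfya-CKO, and in clusters 11, 25 and 28 most barcodes were found in the Cre/+ scATAC-seq library only.

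Libraries shared cell barcodes, which bears on every value of the other somatic cells. Of the 5152 scRNA-seq barcodes of the library labelled Nfya-CKO, 3813 (74.0%) also occurred in the Cre/+ scRNA-seq library, against 92 barcodes common to both scATAC-seq libraries. The 3 wild-type scRNA-seq libraries shared 621 to 853 barcodes per pair, and the wild-type and 8-week libraries shared 0 to 19. Among the 4633 other somatic cells labelled Nfya-CKO, 3628 had a barcode of the Cre/+ scRNA-seq library. By scATAC-seq, 2963 of the 4633 (64.0%) had a barcode found in the Cre/+ scATAC-seq library only, 1216 (26.2%) had one found in the Nfya-CKO scATAC-seq library, and 454 were in neither. The 2963 cells are 50.4% of all other somatic cells.

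UMI counts of these barcodes fell into separate bands. In the 2475 shared barcodes found in the Cre/+ scATAC-seq library only, every barcode had more UMIs in the Cre/+ scRNA-seq library, and the count in the library labelled Nfya-CKO was a median of 7.69% of it (quartiles 6.80 and 9.35). In the 935 found in the Nfya-CKO scATAC-seq library the order was the opposite for 933, and the Cre/+ count was a median of 10.5% of the Nfya-CKO count (quartiles 9.88 and 11.1). Of the 3628 shared barcodes, the copy in the Cre/+ library was named pachytene spermatocyte (pSC) in 1110, elongating spermatid (eST) in 709, round spermatid (rST) in 609, diplotene spermatocyte (dSC) in 503 and other somatic in 317. Of the 2482 that had a Cre/+ scATAC-seq profile, 1474 were named pachytene spermatocyte, 628 round spermatid, 34 Sertoli and 15 other somatic by it. The 2963 cells held 3409597 of the population's 44390019 UMIs, but the pooled value is a mean over cells in which each cell has the same weight. This was read from mitochondrial RNA, whose share in the matrix (1.37% in Sertoli, 0.664% in other somatic cells) equals the mean over cells. Expression per cell was not analysed here, so the pooled values could not be recomputed without these barcodes. Their part in each difference below was not tested. Sertoli cells were less affected, with 214 of 3264 (6.56%) carrying a barcode of another scRNA-seq library.

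**Figure D2:**
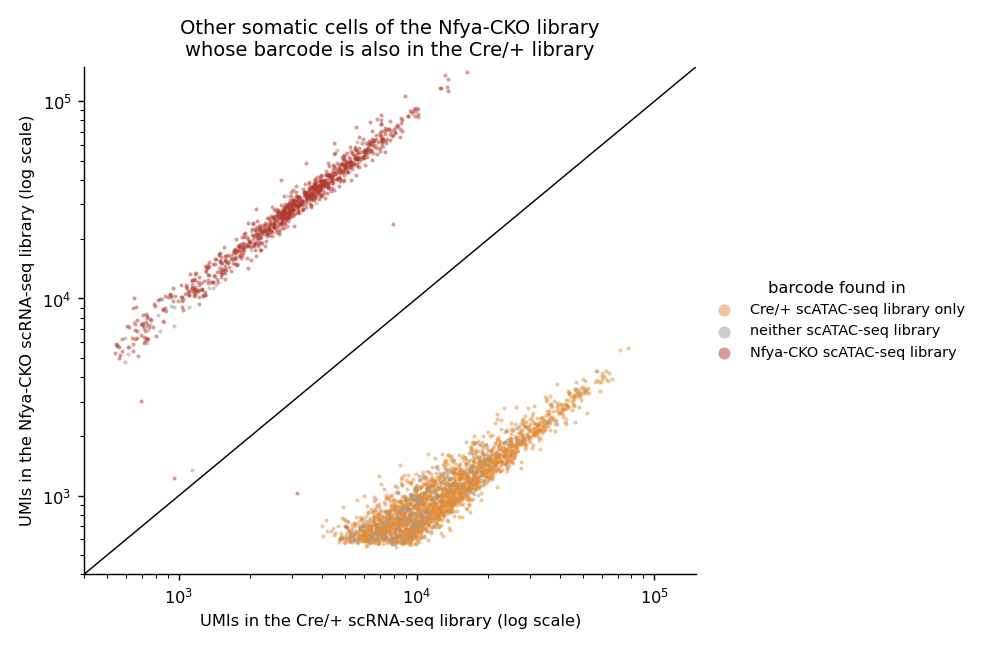
UMIs per barcode in the Cre/+ library (x axis, log scale) and in the library labelled Nfya-CKO (y axis, log scale) for the 3628 other somatic cells whose barcode is in both, coloured by the scATAC-seq library that holds it, with the line of equal counts. Points form a band below the line, almost all of Cre/+ scATAC-seq barcodes, and a band above it, almost all of Nfya-CKO ones.

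Names by scRNA-seq were set beside those by scATAC-seq. The authors named scATAC-seq clusters from the scRNA-seq names of paired cells together with marker accessibility, so the names are not independent and their match is no separate check. Of 3190 Sertoli cells with a paired scATAC-seq profile, 3156 (98.9%, 98.5 to 99.3) were named Sertoli. Of 1942 other somatic cells, 1039 (53.5%, 51.3 to 55.7) were named Sertoli, 729 (37.5%) other somatic and 174 (8.96%) germ cell. This order depended on the cells kept. Without cells that shared a barcode, 309 of 915 (33.8%) were named Sertoli and 443 (48.4%) other somatic; with a TSS enrichment of at least 8, the shares were 29.0% and 57.0%; without the library labelled Nfya-CKO, they were 25.4% and 52.1%. In the library labelled Nfya-CKO alone, 855 of 1217 (70.3%) were named Sertoli and 351 (28.8%) other somatic. With a TSS enrichment of at least 8, these were 156 and 281 of its 440 paired cells. Clusters differed in the same check. Of 808 paired cells of cluster 18, 778 were named Sertoli, and their median TSS enrichment was 6.09. Of 658 paired cells of cluster 21, 370 were named other somatic, 150 Sertoli and 138 germ cell, with a median TSS enrichment of 14.0. Of 419 of cluster 23, 315 were named other somatic and 82 Sertoli. Clusters 11, 25 and 28, with 2094, 597 and 438 cells, had only 29, 21 and 6 paired cells. Of these 10, 15 and 4 were named Sertoli, 6, 6 and 2 other somatic, and 13, 0 and 0 germ cell. No value of the other somatic pool below belongs to a single cell type.

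Depth was not equal. Sertoli cells had a median of 10904 UMIs and 3152 genes per cell and summed to 43524515 UMIs. Other somatic cells ranged in median depth from 876.5 UMIs in cluster 11 and 1053.5 in cluster 28 to 15720 in cluster 18, and those labelled Nfya-CKO had a median of 1289. This median joined unlike sets. It was 945 for the 2963 cells with a barcode of the Cre/+ scATAC-seq library only and 24190 for the 1216 of the Nfya-CKO scATAC-seq library. For the 454 in neither it was 1522.5. Among cells paired with scRNA-seq, the 3190 Sertoli cells had a median of 23175 scATAC-seq fragments and the 1942 other somatic cells 12165.5, and the median TSS enrichment (coverage at transcription start sites over flanking windows) was 13.7 and 9.25. Over all cells by scATAC-seq names, 125740 Sertoli and 24188 other somatic, the median fragments were 2498 and 2251. Mitochondrial genes took 51.0% of the scATAC-seq values of Sertoli cells and 64.5% of those of other somatic cells.

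RNA is given below as mean UMIs per 10000 UMIs of a cell, and an RNA log2 ratio is that of other somatic over Sertoli cells after adding 0.1 to both, which understates the change of low genes. Of 13697 genes with a mean of at least 0.05, 2438 (17.8%) were at least 2-fold higher in other somatic cells and 931 (6.8%) at least 2-fold higher in Sertoli cells, with a median log2 ratio of 0.16. After centring on that median the counts were 1941 and 1325. Among the 2438 genes, 1338 were under 0.05 in Sertoli cells, and among the 931, 39 were under 0.05 in other somatic cells. A gene under 0.05 in 1 population passed only through the other and had to be higher there. At 0 in 1 population, a gene that passed the filter could not fail to be 2-fold apart. This limit also holds for the members counted in each list below. Where at least 0.05 was asked in both populations, 1100 genes were higher in other somatic cells and 892 in Sertoli cells. All differences are called by size alone, and a pooled mean does not tell fewer cells with a transcript from less of it per cell.

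Accessibility is given as a share of a population's summed signal, scaled to a sum of 1000000, and its log2 ratio was taken after adding 1. Of 16045 genes with a mean of at least 5, 505 (3.15%) were at least 1.5-fold higher in other somatic cells and 5208 (32.5%) in Sertoli cells. The median gene was lower in other somatic cells by -0.46 on the log2 scale, a shift that was 0.01 when nuclear genes alone were scaled. Accessibility ratios are therefore given relative to this median, on which 1403 genes (8.74%) were at least 1.5-fold higher in other somatic cells and 887 (5.53%) in Sertoli cells. On nuclear genes alone, 19784 genes passed the filter, and 2675 were higher in other somatic cells and 1449 in Sertoli cells. A gene under 5 in 1 population passed the filter only through the other and, before centring, had to be higher there. This limit also holds for the members counted by accessibility in each list below. Where at least 5 was asked in both populations, 293 genes were higher in other somatic cells and 4623 in Sertoli cells, before centring. The study's methods define promoter accessibility as mean coverage around the start site, but whether the deposited matrix holds that quantity is not given in the sources used here.

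The 339 genes of the 23 lists were all in the RNA matrix, 291 passed the RNA filter and 257 the accessibility filter. Among list members past both fold thresholds in the same direction, before accessibility was centred, the 3 with the largest RNA ratios in each direction were taken, and 5 of these 6 (all but Amh) were matched in the RefSeq promoter table for GRCm38.p6. Their sequences are shown as the start regions of genes apart in RNA and chromatin, although Slc16a3 was not 1.5-fold apart once accessibility was centred. Each is the 250 bases before the start in that table, read 5′ to 3′ on the gene's strand, with matches to 5 searched motifs on either strand in capitals. The motifs were CCAAT (bound by NF-Y), AAGGTCA (bound by NR5A1), AACAAT (bound by SOX proteins), AGATAA (bound by GATA proteins) and TGACTCA (bound by AP-1), and they occur in 34.5%, 4.05%, 9.65%, 10.3% and 4.43% of 27025 promoters of this length. Gatm and Slc16a3 were higher in Sertoli cells and Insl3, Lcn2 and Col1a2 in other somatic cells. Insl3, Lcn2 and Col1a2 were under the accessibility filter of 5 in Sertoli cells, so they passed it only through other somatic cells. Insl3 and Lcn2 were also under the RNA filter in Sertoli cells. Gatm held 2 CCAAT matches and Col1a2 held 1. The windows of Slc16a3, Insl3 and Lcn2 held no match to these letters. The start used for Slc16a3 lies inside the gene's annotated span (chr11:120948484-120959000), and the window of Insl3 lies inside the overlapping gene Jak3.
Gatm, chr2:122611278-122611527, minus strand: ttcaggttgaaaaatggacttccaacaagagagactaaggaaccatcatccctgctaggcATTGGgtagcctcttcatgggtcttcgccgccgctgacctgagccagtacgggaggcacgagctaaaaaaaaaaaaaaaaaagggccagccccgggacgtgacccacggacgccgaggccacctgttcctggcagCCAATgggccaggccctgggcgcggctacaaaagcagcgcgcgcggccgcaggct
Slc16a3, chr11:120948817-120949066, plus strand: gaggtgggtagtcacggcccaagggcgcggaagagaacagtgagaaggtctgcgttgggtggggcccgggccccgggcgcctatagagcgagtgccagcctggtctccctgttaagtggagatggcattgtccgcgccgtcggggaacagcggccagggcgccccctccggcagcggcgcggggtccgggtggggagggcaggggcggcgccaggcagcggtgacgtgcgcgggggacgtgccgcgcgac
Insl3, chr8:71689002-71689251, plus strand: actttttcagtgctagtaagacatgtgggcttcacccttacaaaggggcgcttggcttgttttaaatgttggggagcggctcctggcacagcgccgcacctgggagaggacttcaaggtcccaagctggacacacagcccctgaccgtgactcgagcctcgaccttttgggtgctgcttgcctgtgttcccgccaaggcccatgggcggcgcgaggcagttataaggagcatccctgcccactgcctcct
Lcn2, chr2:32387740-32387989, minus strand: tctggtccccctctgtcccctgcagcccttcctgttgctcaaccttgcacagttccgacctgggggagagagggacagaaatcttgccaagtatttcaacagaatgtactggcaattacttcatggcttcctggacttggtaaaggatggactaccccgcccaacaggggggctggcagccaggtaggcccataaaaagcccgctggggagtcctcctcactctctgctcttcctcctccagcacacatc
Col1a2, chr6:4505368-4505617, plus strand: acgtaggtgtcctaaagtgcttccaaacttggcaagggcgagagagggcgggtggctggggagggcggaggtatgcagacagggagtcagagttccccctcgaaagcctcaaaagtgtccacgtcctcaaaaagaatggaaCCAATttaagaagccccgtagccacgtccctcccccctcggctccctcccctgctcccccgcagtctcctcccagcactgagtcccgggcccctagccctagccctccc

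The Sertoli transcription factors Sox9, Wt1 and Gata6 were lower, but measured, in other somatic cells. Sox9, which sets testis fate, was at 3.54 in other somatic and 10.7 in Sertoli cells, a log2 ratio of -1.57. Wt1, needed to keep Sertoli identity, was at 3.24 and 10.1 (-1.61), and Gata6 at 0.414 and 2.20 (-2.16). Sox8, a relative of Sox9, was at 1.05 and 1.34, within 2-fold. Accessibility of Sox9 was 23.9 against 62.9, or -0.90 relative to the median gene, and that of Wt1 was 21.6 against 65.6 (-1.10). Of 14 factors, 13 passed the RNA filter, 3 were at least 2-fold higher in Sertoli cells and 3 in other somatic cells, against 6.8% and 17.8% of all genes tested. The 3 higher in other somatic cells were Nr2f2, a factor of interstitial progenitors (1.98 and 0.0840, log2 ratio 3.50), Etv5 (1.03 and 0.249, 1.69) and Nr5a1, which drives steroidogenic genes (3.10 and 1.46, 1.04). Nr5a1 was within 2-fold after centring, and Etv5 carried the spermatid mark described below. Relative to the median, 6 of the 14 were at least 1.5-fold more accessible in Sertoli cells and 2 in other somatic cells, against 5.53% and 8.74% of all genes. Of the 2, Nr2f2 was at 13 against 3.99 (1.95).

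Among hormone receptors and signals of Sertoli cells, Fshr, Dhh, Notch1 and Amh were higher in Sertoli cells. Fshr, the receptor of follicle-stimulating hormone, was at 0.494 in other somatic and 3.33 in Sertoli cells (log2 ratio -2.53), and its accessibility was 3.36 against 11.5 (-1.06 relative to the median). That accessibility was under 5 in other somatic cells, so Fshr passed the filter only through Sertoli cells and, before centring, had to be higher there. Dhh, the hedgehog ligand that Sertoli cells send to Leydig cells, was at 0.761 and 2.89 (-1.80). Notch1, a receptor of juxtacrine signals, was at 0.251 and 2.48 (-2.88), while its accessibility was 2.36 against 1.6, under the filter. Amh, the juvenile Sertoli hormone, was at 0.0321 and 0.927 (-2.96), with accessibility of 16.8 against 51.1 (-1.09). Amhr2, the receptor of that hormone, was at 10.1 and 5.03, just under 2-fold higher in other somatic cells, whereas its accessibility was 13.3 against 30.2 (-0.66). Cyp26b1, which degrades retinoic acid, was at 1.82 and 0.0897 (3.34). Of 23 genes in this list, 22 passed the RNA filter, 7 were higher in Sertoli cells and 3 in other somatic cells, against 6.8% and 17.8% of all genes. In accessibility the counts were 6 and 1 of 21, against 5.53% and 8.74%.

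Juvenile Sertoli genes besides Amh included Ccnd2, a D-type cyclin, at 1.48 in other somatic and 5.24 in Sertoli cells (log2 ratio -1.76). Serpine2, a protease inhibitor, was at 0.405 and 1.30 (-1.47), and Mro at 4.51 and 9.38 (-1.04). Keratins that mark immature Sertoli cells were near the limit of detection in both, with Krt18 at 0.0388 and 0.00530 and Krt8 at 0.00604 and 0.00105. In this list of 12, 10 passed the RNA filter, 5 were higher in Sertoli cells (6.8% of all genes) and 1 in other somatic cells (17.8%), and 5 of the 11 past the accessibility filter were more accessible in Sertoli cells (5.53% of all genes) and 0 in other somatic cells (8.74%).

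Secreted and support genes of adult Sertoli cells went both ways in RNA, and most of those apart in chromatin were more accessible in Sertoli cells. Clu, which encodes the secreted chaperone clusterin, was at 91.5 in other somatic and 34.1 in Sertoli cells (log2 ratio 1.42). Tsx was at 1.72 and 0.215 (2.53) and the transferrin gene Trf at 0.872 and 0.151 (1.95). Ptgds, which makes prostaglandin D2, was at 52.3 and 0.0815 (8.17), and Lcn2, a siderophore-binding lipocalin, at 19.3 and 0.000251 (7.59). Against these stood Gatm, of creatine synthesis, at 5.34 and 33.2 (-2.61), the androgen carrier gene Shbg at 0.493 and 1.66 (-1.57) and the cystatin gene Cst9 at 9.67 and 25.6 (-1.40). Of 24 genes, 23 passed the filter, 9 were at least 2-fold higher in other somatic cells and 6 in Sertoli cells, against 17.8% and 6.8% of all genes, with a list median of 0.06 that became -0.10 after centring and -0.20 when values were scaled without the spermatid RNA described below. By accessibility relative to the median, 14 of the 22 past the filter were at least 1.5-fold higher in Sertoli cells and 2 in other somatic cells, against 5.53% and 8.74% of all genes, with a list median of -0.90. Clu itself was at 19.0 against 58.0 (-1.10), in the opposite direction to its RNA, while Gatm was at 8.95 against 36.5 (-1.45). Cst9 (2.50 against 20.9) and Shbg (8.54 against 55.7) had the lowest accessibility ratios of all genes with a mean of at least 10, at -2.18 and -2.11. Both were under 10 in other somatic cells, so they passed that cut only through Sertoli cells and, before centring, had to be higher there. Lcn2 was the exception among the named genes, at 14.5 against 3.42 (2.27). Its Sertoli value was under the filter of 5, so it passed only through other somatic cells and had to be higher there.

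Junction genes of the blood-testis barrier were higher in Sertoli cells wherever they were 2-fold apart. Cldn11, the main claudin of the barrier, was at 6.29 in other somatic and 16.0 in Sertoli cells (log2 ratio -1.33), with accessibility of 14.5 against 56.2 (-1.42 relative to the median). The occludin gene Ocln was at 0.306 and 1.37 (-1.86), with accessibility of 8.32 against 31.7 (-1.35). F11r, a junctional adhesion molecule, was at 2.40 and 11.1 (-2.16), N-cadherin gene Cdh2 at 0.490 and 1.82 (-1.70) and Cxadr at 0.112 and 0.717 (-1.94). Cldn3 (0.0331 and 0.0167) and Cldn5 (0.0364 and 0.00513) were low in both. Of 20 genes, 16 passed the RNA filter, 9 were higher in Sertoli cells and 0 in other somatic cells, against 6.8% and 17.8% of all genes tested. In accessibility the counts were 9 and 0, against 5.53% and 8.74%.

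**Figure D3:**
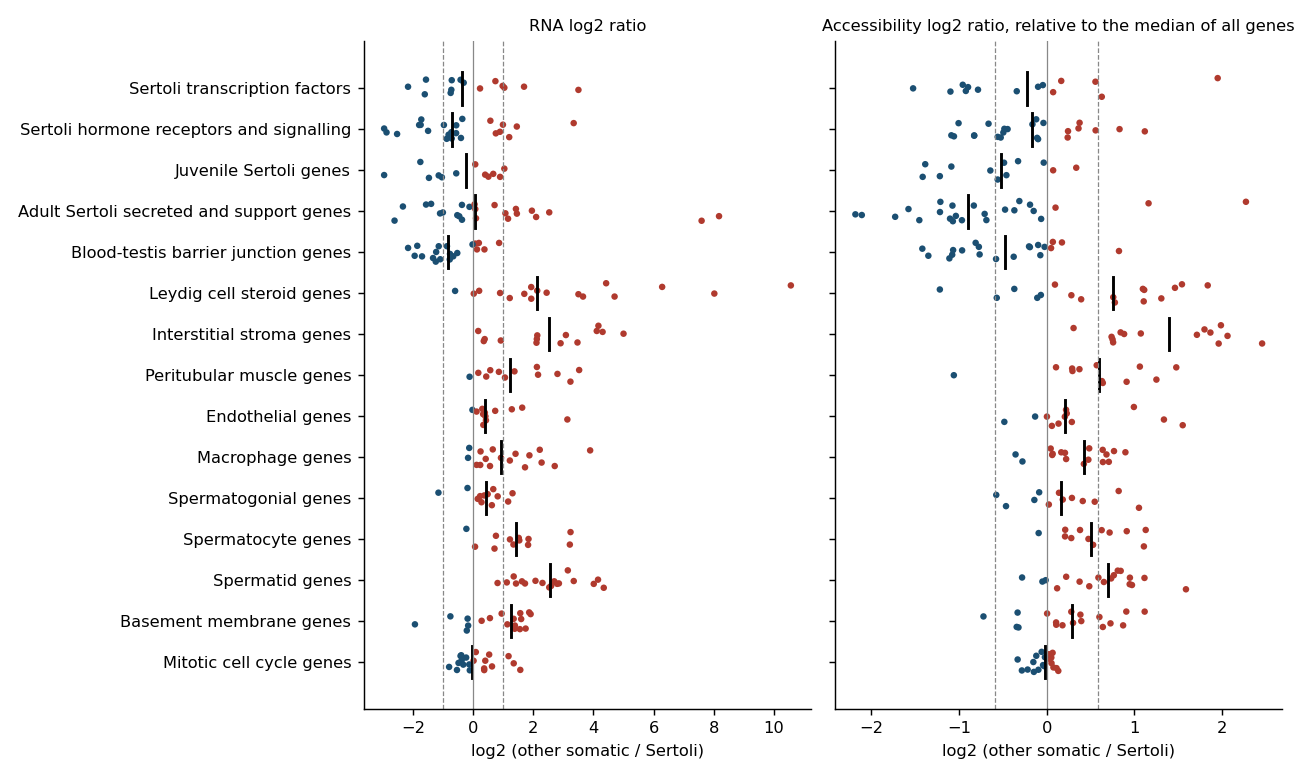
Log2 ratio of each list member (points, red above 0 and blue below) and the median over the list (black bars) for the lists drawn, with members under the filters on low values included, in RNA (left) and accessibility relative to the median of all genes (right), with positive values higher in other somatic cells. Dashed lines mark 2-fold for RNA and 1.5-fold for accessibility. Leydig, stroma and spermatid lists lie to the right in RNA and junction genes to the left, while adult Sertoli genes are spread in RNA and lie to the left in accessibility.

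Leydig cell genes were far higher in other somatic cells and held the highest ratio of the lists. Insl3 (chr8:71689252-71690577), the Leydig peptide hormone, was at 177 in other somatic and 0.0176 in Sertoli cells (log2 ratio 10.56). Jak3, which overlaps Insl3 on the genome, was at 178 and 0.0221, and reads of these 2 genes could not be told apart here. Cyp17a1, which makes androgen precursors, was at 31.2 and 0.0208 (8.02), Cyp11a1, which makes pregnenolone, at 3.94 and 0.0553 (4.70), and Hsd3b6 at 7.78 and 0.00128 (6.28). Star, which moves cholesterol into mitochondria, was at 4.18 and 0.241 (3.65). Of 17 genes, 15 passed the filter, 13 were higher in other somatic cells and 0 in Sertoli cells, against 17.8% and 6.8% of all genes. However, Insl3, Cyp17a1 and Hsd3b6 were under the RNA filter in Sertoli cells. They passed it only through other somatic cells and so had to be higher there. In chromatin, 8 of the 17 passed the accessibility filter, with 2 higher in other somatic cells and 1 in Sertoli cells, against 8.74% and 5.53% of all genes, too few to read a direction from. Insl3 was at 9.48 against 3.03 (1.84), whereas Star was at 15.7 against 33.1 (-0.57) and Cyp11a1 at 2.18 against 3.58, under the filter. The Sertoli value of Insl3 was under 5, so Insl3 passed only through other somatic cells and had to be higher there. Insl3 RNA was also present in germ cell pools, at 39.8 in SPG_undiff_CKO spermatogonia, 3.81 in elongating spermatids and 0.527 in round spermatids, against 0.0640 in SPG_undiff and 0.0227 in preleptotene (preLep) cells.

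Most stroma genes that could be compared were higher in other somatic cells. Col1a2 was at 8.96 and 0.183 (log2 ratio 5.0) and Col1a1 at 7.73 and 0.354 (4.11), which together encode type I collagen, and Col3a1 was at 3.45 and 0.0980 (4.16). Decorin gene Dcn was at 2.45 and 0.0294 (4.30), and Pdgfra, a receptor of Leydig progenitors and fibroblasts, at 1.63 and 0.0566 (3.47). Lum was at 0.0124 in other somatic cells and listed at 0 in Sertoli cells. Of 14 genes, 11 passed the RNA filter and 10 were higher in other somatic cells, against 17.8% of all genes. However, Dcn was under the RNA filter in Sertoli cells. It passed only through other somatic cells and so had to be higher there. In accessibility 7 passed the filter, and all 7 were at least 1.5-fold higher in other somatic cells relative to the median (8.74% of all genes). Among them Col1a2 was at 15.6 against 4.77 (1.99). Its Sertoli value was under the filter of 5, so it passed only through other somatic cells.

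Peritubular muscle genes were also higher in other somatic cells. Acta2, smooth muscle actin, was at 3.10 and 0.240 (log2 ratio 3.23), Myh11, smooth muscle myosin, at 1.56 and 0.0444 (3.52), Tagln at 0.419 and 0.0164 (2.16) and Myl9 at 2.94 and 0.336 (2.80). Of 12 genes, 9 passed the RNA filter and 7 were higher in other somatic cells, against 17.8% of all genes. However, Tagln and Myh11 were under the RNA filter in Sertoli cells. They passed it only through other somatic cells and so had to be higher there. The spermatid mark described below fell on 4 of the 12, Tagln and Myl9 among them, and on 2 when the spermatid value had to be at least that of other somatic cells. Acta2 was less accessible there, at 14.8 against 44.2 (-1.06), the 1 member that was 1.5-fold higher in Sertoli cells, while Myh11 was at 17.8 against 12.7 (0.91) and 4 of the 9 members past the filter were higher in other somatic cells, against 8.74% of all genes (5.53% in Sertoli cells).

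Markers of vessels and immune cells ranged widely in level. Pecam1, an endothelial adhesion molecule, was at 0.0973 and 0.0469, and Cdh5 at 0.265 and 0.0179. The macrophage marker Adgre1 (0.0245 and 0.00496) and the leukocyte marker Ptprc (0.0371 and 0.00263) were under the RNA filter and were not compared. Cd68, another macrophage marker, was at 0.164 and 0.0390, within 2-fold once 0.1 was added to both. Csf1r, the receptor of macrophage colony-stimulating factor, was at 0.184 and 0.00692 (log2 ratio 1.41), and Cd74 of antigen presentation at 1.84 and 0.0307 (3.89). Of the 12 endothelial genes 3 were higher in other somatic cells, of the 17 macrophage genes 8 and of the 12 lymphocyte genes 1, and no member of these lists was 2-fold higher in Sertoli cells. Those that passed the RNA filter numbered 6, 11 and 2. The share of all genes was 17.8% higher in other somatic cells and 6.8% higher in Sertoli cells. Cdh5, Tek, Csf1r, Cd74, Aif1 and H2-Ab1, under 0.05 in Sertoli cells, passed only through other somatic cells and so had to be higher there. The spermatid mark described below fell on 3, 5 and 2 members of the 3 lists. Among them Aif1, a macrophage marker, was at 0.404 in other somatic cells and 5.12 in round spermatids. The summed level of the macrophage list was 5.54 in other somatic and 1.20 in Sertoli cells, and that of the endothelial list 2.04 and 0.340.

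Signals and receptors exchanged between testis somatic cells differed gene by gene. The ligand gene Dhh was higher in Sertoli cells, and Gli1, a target of hedgehog signalling, was at 0.188 in other somatic and 0.00468 in Sertoli cells (log2 ratio 1.46), with accessibility of 32.7 against 17.6 (1.32). Ptch1, the hedgehog receptor, was at 0.886 and 1.81 in RNA, within 2-fold, and at 15.2 against 10.4 in accessibility (0.96). The growth factor gene Igf1 was at 1.40 and 0.0339 (3.48). Amh was higher in Sertoli cells and Amhr2 close to 2-fold higher in other somatic cells, as above. Of 24 genes of such pairs, 22 passed the RNA filter, 9 were higher in other somatic cells and 3 in Sertoli cells, against 17.8% and 6.8% of all genes. Of the members named in this report, Gli1, Igf1, Insl3 and Csf1r passed it only through other somatic cells and so had to be higher there. In accessibility relative to the median the counts were 9 and 4 of 22, against 8.74% and 5.53%. The spermatid mark described below fell on 3 members of this list, Igf1 and Insl3 among them.

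Genes of the basement membrane and of glycolysis and lactate also differed in RNA. Of 18 basement membrane genes, 10 were higher in other somatic cells and 1 in Sertoli cells, against 17.8% and 6.8% of all genes. Type IV collagen genes Col4a1 (3.25 and 1.22, log2 ratio 1.35), Col4a3 (0.837 and 0.258, 1.39), Col4a4 (2.74 and 0.682, 1.86) and Col4a5 (0.627 and 0.117, 1.74) were among the 10. The pairs Col4a1 with Col4a2 and Col4a3 with Col4a4 overlap on the genome, so their reads and accessibility may be shared. Itga6, a laminin receptor subunit, was the 1 gene higher in Sertoli cells, at 0.70 and 2.96 (-1.94). Among 19 glycolysis and lactate genes, 16 passed the RNA filter and 4 were higher in Sertoli cells (6.8% of all genes), including the lactate exporter gene Slc16a3 (0.153 and 1.38, -2.54), Gapdh (0.516 and 2.37, -2.0) and Eno1 (0.169 and 0.884, -1.87). A further 7 were higher in other somatic cells (17.8% of all genes), including Slc2a3 (2.51 and 0.638, 1.82) and Hk1 (0.556 and 0.103, 1.69). Of these 7, 6 carried the spermatid mark described below, Slc2a3 and Hk1 among them, and Hk1 was at 6.21 in elongating spermatids. In accessibility none of the 17 that passed the filter was 1.5-fold apart from the median gene, and Slc16a3 was at 11.2 against 17.8 (-0.16).

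RNA and accessibility ratios followed each other loosely. Over 11930 genes that passed both filters, Spearman's rho was 0.31 (Pearson's r 0.41), across genes that share libraries and are not independent. Of the 1630 genes at least 2-fold higher in other somatic cells in RNA, 410 (25.2%) were at least 1.5-fold more accessible there relative to the median and 41 (2.52%) less. Of the 854 higher in Sertoli cells, 188 (22%) were more accessible in Sertoli cells and 10 (1.17%) less. Among the 9446 genes within 2-fold the shares were 3.43% and 3.18%. Clu and Acta2 belonged to the 41 genes with opposite directions. Among genes with a mean accessibility of at least 10, whatever their RNA, the highest accessibility ratios belonged to Lbp, at 18.6 against 1.88 (3.23), Gm29683, Gm11494, Rprml and Fcgrt, and the lowest to Cst9, Shbg, Dthd1, Gm31659 and Gm13546. Each of these genes was under 10 in 1 population, so it passed the cut only through the other and, before centring, had to be higher there.

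**Figure D4:**
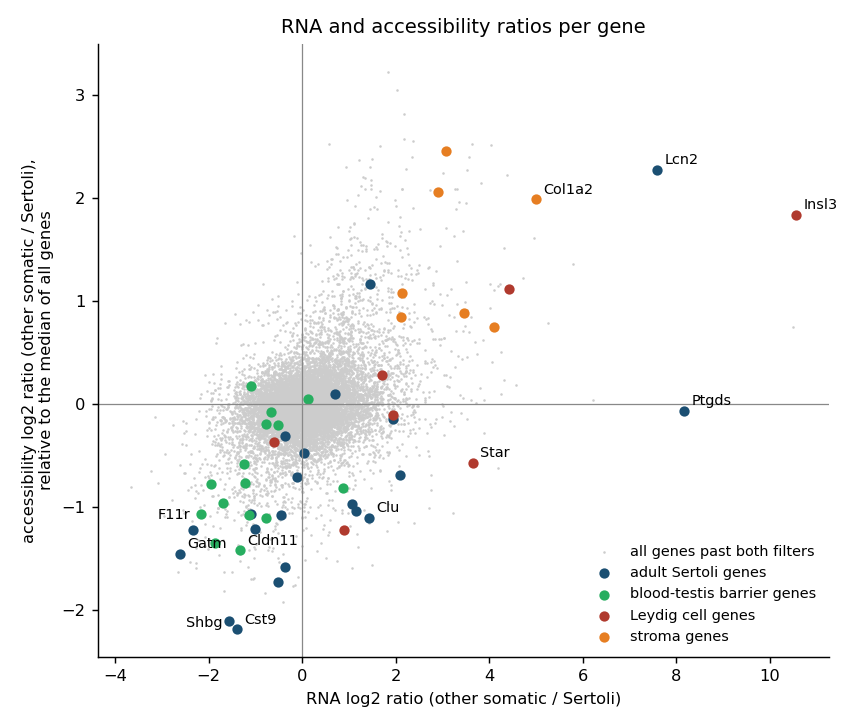
RNA log2 ratio (x axis) and accessibility log2 ratio relative to the median of all genes (y axis) for the 11930 genes past both filters, with members of 4 lists in colour. Stroma genes lie up and to the right and most junction genes down and to the left, whereas Clu and Star lie to the right below 0.

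Other genes with large RNA ratios were Jak3, Asxl3, Ephx1, Chl1 and Agt in other somatic cells and H2-Q10, Socs2, Ptma, Lpl, Stra6, Sel1l3 and Capn6 in Sertoli cells. H2-Q10, a class I histocompatibility gene, was at 0.122 in other somatic and 2.71 in Sertoli cells (log2 ratio -3.66). Socs2, a brake on growth hormone signalling, was at 0.184 and 2.59 (-3.24), with accessibility of 29.7 against 65.4 (-0.65). Ptma, a chromatin protein, was at 1.82 and 17.0 (-3.16), and lipoprotein lipase gene Lpl at 0.0869 and 1.49 (-3.09). Ephx1, an epoxide hydrolase, was at 8.19 and 0.0177 (6.14), and angiotensinogen gene Agt at 5.99 and 0.00957 (5.80). Asxl3 was at 11.7 and 0.0577 (6.23) and Chl1 at 7.27 and 0.0216 (5.92). Unlike the Leydig genes, both were as high or higher in spermatids, with Asxl3 at 24.2 in round and 23.8 in elongating spermatids and Chl1 at 9.02 and 13.8. In SPG_undiff_CKO spermatogonia Asxl3 was at 12.9 and Chl1 at 5.24, against 0.975 and 0.357 in SPG_undiff.

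Spermatid RNA was marked by genes whose value in round or elongating spermatids was at least 10 times that in preleptotene cells and at least 0.05. The mark fell on 4118 genes, of which 1585 passed the RNA filter, 11.6% of those tested. It fell on 1136 of the 2438 genes higher in other somatic cells (46.6%) and on 16 of the 931 higher in Sertoli cells (1.72%). Marked genes are near 0 in preleptotene cells, and many passed the RNA filter only through other somatic cells, where they then had to be higher. Among genes at 0.05 or more in both populations, a filter added after seeing the data, the mark fell on 191 of 1100 genes higher in other somatic cells (17.4%), 15 of 892 higher in Sertoli cells (1.68%) and 423 of all 11360 (3.72%). Without the marked genes, 1302 and 915 genes remained in the 2 directions. By size of the log2 ratio, the mark fell on 2.64% of genes at 0 to 0.5, 41.9% at 1 to 2, 62.7% at 2 to 3 and 59.1% above 3. Among genes at 0.05 or more in both populations the shares were 1.95%, 13.3%, 32.7% and 45.8%, the last over 48 genes. Summed over marked genes, the level was 1314 per 10000 in other somatic and 212 in Sertoli cells, against 3508 in round spermatids, 2511 in elongating spermatids and 102 in preleptotene cells.

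The mark was not specific to spermatids. Insl3, Jak3, Cyp17a1, Hsd3b6, Ptgds, Lcn2 and Agt carried it, since they were near 0 in preleptotene cells, although each was far higher in other somatic cells than in spermatids. When the spermatid value also had to be at least that of other somatic cells, a rule chosen after these genes were seen, 1024 of the 2438 genes (42.0%) stayed marked and their summed level was 663 in other somatic and 180 in Sertoli cells. Of the 18 spermatid genes listed, 17 carried the mark (11.6% of all genes tested). In RNA, 17 were at least 2-fold higher in other somatic cells (17.8% of all genes). However, Prm1, Prm2, Tnp1, Tnp2 and Odf1 were under 0.05 in Sertoli cells. They passed the filter only through other somatic cells and so had to be higher there. Prm1, a protamine that packs sperm DNA, was at 1.54 in other somatic and 0.00198 in Sertoli cells (log2 ratio 4.01), Tnp2 at 2.03 and 0.00523 (4.34), Odf1 of the sperm tail at 0.956 and 0.00399 (3.34) and Ldhc, the germ cell lactate dehydrogenase, at 2.67 and 0.0562 (4.15). In accessibility, 5 of the 18 passed the filter and none was 1.5-fold apart from the median gene. Of 12 spermatocyte genes, 11 passed the RNA filter and 8 were higher in other somatic cells, against 17.8% of all genes, among them Piwil1, which binds piRNAs, at 1.57 and 0.0771 (3.24), and Sycp3 of the synaptonemal complex at 1.25 and 0.282 (1.83). In accessibility 8 of the 12 passed the filter. Relative to the median, 4 were at least 1.5-fold higher in other somatic cells and 0 in Sertoli cells, against 8.74% and 5.53% of all genes. Before centring these counts were 1 and 0. Sycp3 was at 19.9 against 12.2 (1.13). Beside these counts stand the 2963 other somatic cells whose barcode was found in the Cre/+ scATAC-seq library only. Their part in the spermatid and spermatocyte RNA was not tested.

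**Figure D5:**
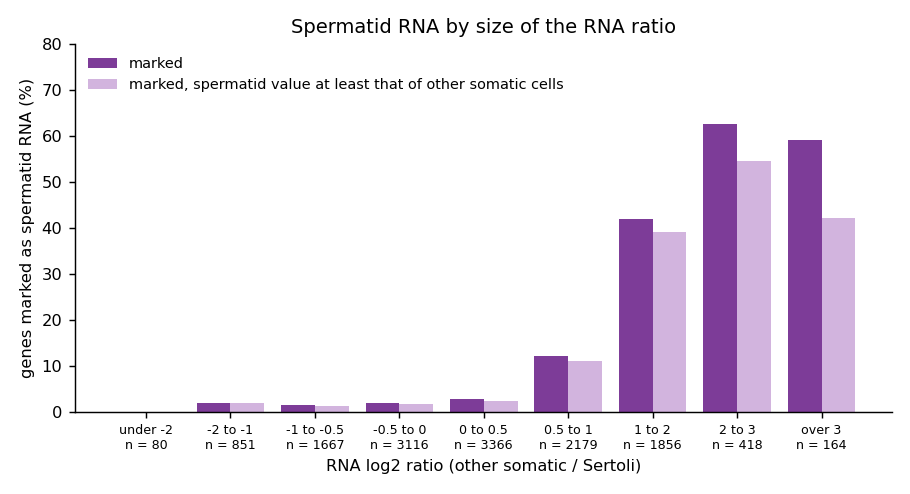
Percent of genes marked as spermatid RNA (y axis) by RNA log2 ratio of other somatic over Sertoli cells (x axis, with the number of genes tested in each bin), for the mark as defined and with the spermatid value also at least that of other somatic cells. The share is 2.64% or lower below a ratio of 0.5 and 41.9% to 62.7% above 1 for the first rule.

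Nfya, the gene targeted in Nfya-CKO germ cells, was at 0.822 in other somatic and 0.360 in Sertoli cells, a log2 ratio of 1.0 that fell to 0.84 after centring. Its partners Nfyb (0.356 and 0.300) and Nfyc (0.734 and 0.863) were within 2-fold. Accessibility of Nfya was 56.7 against 78.5, equal to the shift of the median gene. Pooled over libraries, these values give no check of the deletion in the somatic cells of any library.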

How the data were processed

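RNA and open chromatin of testis nuclei were sequenced together on the BD Rhapsody system, with 1 library per condition and assay. Per the submitters' processing notes and the methods, the authors aligned RNA reads to mm10 with STAR 2.7.10b and scATAC-seq reads with BWA 0.7.12, shifted transposase ends, collapsed UMIs, filtered cells with Seurat 5.2.1 and ArchR 1.0.3, and removed doublets with DoubletFinder (scRNA-seq) and ArchR (scATAC-seq). The authors deposited per cell the UMI and fragment counts, the percent of mitochondrial UMIs, the fraction of reads in promoters, and TSS enrichment, a ratio. They also deposited 1 matrix per assay, whose score per population is the natural log of 1 plus a pooled value. The scATAC-seq matrix has populations that only scRNA-seq names, so its columns were taken to follow scRNA-seq names. This is an assumption, not stated in the sources used here, and it decides which cells the accessibility values belong to. Library totals were 30227701 to 64967271 UMIs and 177596122 to 872964488 fragments. 16 further columns were not used.

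Values were turned back with exp(value) - 1, to a sum of 10000 for RNA and 1000000 for accessibility (Python 3.11.15, numpy 2.4.6, pandas 2.3.3, scipy 1.17.1). Pseudocounts were 0.1 and 1, filters 0.05 and 5, and folds 2 and 1.5. Only the RNA fold calls were tested on simulated data, with set folds applied to noise-free pooled values of well-expressed genes. The accessibility, barcode, naming and marking steps were not tested in this way. Intervals of shares are exact (Clopper-Pearson, 95%) and hold counting error alone. The members and gene lists were chosen with earlier results of these data known. Named genes were, per list, its first 3 genes and up to 4 with the largest RNA ratio at a mean of at least 0.2, then the 10 largest RNA ratios (mean of at least 0.2) and 5 largest accessibility ratios (mean of at least 10) in each direction, and the NF-Y subunits; some of these are not reported here. Nr5a1 was named outside this rule after its value was seen. The check of shared barcodes was added after seeing the data. Coordinates and promoters are those of RefSeq for GRCm38.p6, the build of mm10. Whether reads were counted by strand is not given in the sources used here.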

Additional observations from a re-analysis of the deposited data

How the results depend on the processing

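With 1 library per condition no replicate could be left out. No paired analysis was possible because each group has 1 sample and the compared values are pooled over libraries. Lowering the RNA pseudocount to 0.01 gave 3683 genes higher in other somatic cells, and raising it to 1 gave 210, with 199 higher in Sertoli cells. A mean RNA of at least 0.2 gave 1344, and at least 0.05 in both populations gave 1100. Counts of genes more accessible in other somatic and in Sertoli cells were 306 and 3138 with a pseudocount of 5, 2675 and 1449 on nuclear genes alone, 1403 and 887 after centring, and 198 and 1016 at 2-fold. Genes more accessible in other somatic cells numbered 1789 with no filter, 213 at a mean of at least 10 and 293 at 5 or more in both populations. The percent marked as spermatid RNA among genes higher in other somatic cells was 58.1% at 5 times preleptotene, 37.1% at 20 times, 37.6% when both spermatid types had to pass, 39.3% at a spermatid value of at least 0.5, 17.4% among genes at 0.05 or more in both populations and 42.0% when this value had to reach that of other somatic cells. Among genes higher in Sertoli cells it was 4.83%, 0.537% and 0.322% under the first 3 of these. The percent of other somatic cells labelled Nfya-CKO was 69.0% with at least 1000 genes and 56.9% without shared barcodes, and that of Sertoli cells from 11 dpp 89.3% without shared barcodes. Sertoli cells named Sertoli by scATAC-seq were 99.3% without shared barcodes. Other somatic cells named Sertoli were 29.0% at a TSS enrichment of at least 8, 33.8% without shared barcodes and 25.4% without the library labelled Nfya-CKO, and those named other somatic 57.0%, 48.4% and 52.1%. With a pseudocount of 0.01 and of 1, the RNA list median was 4.72 and 0.79 for Leydig genes, 2.99 and 0.28 for peritubular genes, 4.40 and 0.81 for stroma genes, 2.60 and 0.16 for macrophage genes, 2.04 and 0.37 for spermatocyte genes and 5.28 and 0.69 for spermatid genes. It was 1.29 for endothelial genes with 0.01 and 0.36 for basement membrane genes with 1. Scaled without marked genes, the spermatid list was at 1.59. On nuclear genes alone the stroma list's accessibility median was 1.56. Of the list medians in RNA, those of the adult Sertoli (0.06 to -0.10), lymphocyte (0.10 to -0.06) and stress genes (0.05 to -0.11) changed sign on centring, and those of the adult Sertoli (-0.20), glycolysis (0.18 to -0.09), mitotic (-0.05 to 0.08) and phagocytosis genes (-0.11 to 0.05) when scaled without marked genes. The cause was not tested. Other somatic cells labelled Nfya-CKO, with 1289 UMIs in the median, limit what can be seen of low genes. Among them the median was 945 for barcodes of the Cre/+ scATAC-seq library only and 24190 for those of the Nfya-CKO scATAC-seq library.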

Other observations

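Among 20 mitotic cell cycle genes, Mki67 was at 0.622 UMIs per 10000 in other somatic and 0.579 in Sertoli cells, Top2a at 1.75 and 1.33, and Cdk1 at 0.646 and 0.464. In this list 3 genes were at least 2-fold higher in other somatic cells, the cyclin gene Ccnb2 (0.550 and 0.155) and the replication helicase genes Mcm2 (0.561 and 0.193) and Mcm7 (0.755 and 0.189), and 0 in Sertoli cells, against 17.8% and 6.8% of all genes tested. The median accessibility ratio of the list was -0.02 relative to all genes. Of 16 stress and immediate early genes, Zfp36, which destabilises cytokine transcripts, was higher in other somatic cells (3.82 and 1.22, RNA log2 ratio 1.57) and Jund higher in Sertoli cells (5.0 and 18.6, -1.87), while Fos, Jun and Fosb were within 2-fold.

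Cholesterol synthesis genes feed steroid production. Of 18 genes, 17 passed the filter and 4 (against 17.8% of all genes) were at least 2-fold higher in other somatic cells, namely Cyp51 (1.11 and 0.346), Msmo1 (3.10 and 1.31), Sc5d (0.725 and 0.300) and Mvk (0.256 and 0.0678, named after its value was seen), and Sc5d and Mvk lost this after centring, when Srebf2 (1.13 and 2.34), a regulator of these genes, became 2-fold higher in Sertoli cells. Among 18 phagocytosis and lysosome genes, the receptors Mertk (0.860 and 1.71), Axl (2.47 and 4.09) and Tyro3 (1.56 and 2.18) were within 2-fold. Their ligand Gas6 was higher in Sertoli cells (1.28 and 2.77, -1.05) and the other ligand Pros1 higher in other somatic cells (0.870 and 0.336, 1.15). The lipid scavenger receptor gene Cd36 was at 0.682 and 0.00320 (2.92). Of the nuclear RNAs, Malat1 was at 28.4 and 24.9 and the imprinted RNA Meg3 at 1.43 and 0.0374 (3.48).

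Of the 341 other somatic cells of the Cre/+ scRNA-seq library, 282 had a barcode found in the Nfya-CKO scATAC-seq library and 39 one found in the Cre/+ scATAC-seq library. Of the 142 other somatic cells at 17 dpp, 35 had a barcode found in the 11 dpp scATAC-seq library.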
